A study of Homo sapiens with 29 samples.

Results

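The 10 genes described here, AXL, ANKRD1, AMOTL2, CCN2, AJUBA, CRIM1, MYOF, DLC1, WWC1 and ARHGEF17, are known from other work as targets of the transcriptional coactivator YAP. They were taken by gene symbol from the probe table of the array, out of 14884 named genes, and all 10 were among the 6529 genes bright enough to be tested. HepG2 is an established human liver tumour line. Its cells received CCL, the labels' short name for the herb Cratoxylum cochinchinense Lour, and were sampled at 6, 12 and 18 h (3 arrays each) and at 24 and 48 h (2 arrays each). Untreated HepG2 cells were sampled at 0 h (2 arrays), 6 and 12 h (3 each), 18 h (2), and 24 and 48 h (3 each), so the 0 h arrays have no CCL counterpart. In all there were 13 CCL and 16 untreated arrays, and the labels number the arrays of a group by set, 1 to 3, without saying what a set is. No allele, transgene or second agent is given for either arm, and the labels give neither the dose, the solvent, nor whether arrays of a group came from separate cultures. P-values therefore measure only the spread between these arrays.

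YAP and its paralogue TAZ (WWTR1) carry no DNA-binding domain and act through TEAD transcription factors. The Hippo kinases LATS1 and LATS2 phosphorylate YAP and hold it in the cytoplasm, and loss of this restraint in liver leads to overgrowth. Several targets feed back on the pathway: AMOTL2 and WWC1 (KIBRA) restrain YAP, while AJUBA binds and inhibits LATS kinases. YAP protein, its phosphorylation and TEAD binding were not measured on these arrays, so the values below are RNA levels of genes that carry the name of a target.

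Promoter sequences are shown for the members on which the results turn, CCN2, ANKRD1 and AXL, because they differ in how often the TEAD-type letters occur. The sequences are from RefSeq on GRCh38.p14 and cover the 250 bases before an annotated start, 5′ to 3′ on the gene's strand. Capitals mark GGAATG, the core letters bound by TEAD factors, or its reverse complement CATTCC. They also mark TGANTCA, a loose AP-1-type pattern in which N was allowed to be any base. Both strands were searched, and no match overlapped another. CCN2 has 3 TEAD-type matches, 169, 104 and 95 bases before the start, in chr6:131951373-131951622 (minus strand). ANKRD1 has 2, 220 and 128 bases before the start, and 1 AP-1-type match at 195 bases (TGATTCA, with T at N), in chr10:90921088-90921337 (minus strand). AXL has none before its first start in chr19:41218973-41219222 and 1, 212 bases before its second start, in chr19:41226505-41226754 (plus strand).
CCN2: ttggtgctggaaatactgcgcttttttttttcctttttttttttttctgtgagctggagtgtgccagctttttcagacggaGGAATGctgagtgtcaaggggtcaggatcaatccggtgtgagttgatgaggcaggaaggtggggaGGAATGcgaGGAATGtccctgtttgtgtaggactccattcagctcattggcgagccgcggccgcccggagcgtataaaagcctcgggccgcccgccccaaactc
ANKRD1: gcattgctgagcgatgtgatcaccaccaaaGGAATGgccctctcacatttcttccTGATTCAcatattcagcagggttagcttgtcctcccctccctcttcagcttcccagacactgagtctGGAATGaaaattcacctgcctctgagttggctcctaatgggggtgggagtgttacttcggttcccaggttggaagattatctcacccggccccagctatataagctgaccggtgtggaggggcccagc
AXL first start: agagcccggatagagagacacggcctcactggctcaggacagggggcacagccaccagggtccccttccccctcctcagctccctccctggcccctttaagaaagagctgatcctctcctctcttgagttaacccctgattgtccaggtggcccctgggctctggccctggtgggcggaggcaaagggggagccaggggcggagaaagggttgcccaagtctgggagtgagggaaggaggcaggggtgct
AXL second start: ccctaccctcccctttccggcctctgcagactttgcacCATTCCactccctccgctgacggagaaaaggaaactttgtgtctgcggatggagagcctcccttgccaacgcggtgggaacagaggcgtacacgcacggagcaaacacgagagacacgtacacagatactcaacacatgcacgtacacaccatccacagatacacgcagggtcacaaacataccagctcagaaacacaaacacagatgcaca

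A promoter entry was found for 7 of the 10 members, with 10 starts in all; CRIM1, DLC1 and ARHGEF17 had no entry. TEAD-type letters were present before 5 of these 10 starts and before 11.9% of 35116 starts in the RefSeq table. At least 2 matches were present before 0.94% of starts, and at least 3, as in CCN2, before 0.0826%. Beyond the starts shown, AMOTL2 and AJUBA each had 1 match before their second start, at 69 and 59 bases, while MYOF and WWC1 had none. AP-1-type letters were found before 1 member start, that of ANKRD1, and before 6.57% of all starts. The CArG box, the site of serum response factor (SRF), was found before no member start and before 1.16% of all. These are letter matches in a short window and do not show binding.

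All values are log2 expression per probe set as deposited, so a difference of 1 is a doubling on the linear scale. A gene is called where limma's adjusted p (Benjamini-Hochberg over the 6529 tested genes) was under 0.05, and errors are standard errors (SE) of that model. Gene positions in parentheses are those of RefSeq on GRCh38.p14. Array medians over all probe sets ran from 2.29 to 3.39 and both extremes were at 18 h, in untreated and in CCL-treated cells. At 18 h the median of all tested genes was 0.41 higher in CCL-treated cells, at 48 h its difference was -0.26, and quantile-normalized values are given beside several of the differences at these times. Hepatocyte RNA was present in both arms: albumin (ALB) had a median of 11.88 in CCL-treated and 11.95 in untreated cells, while 4 of 13 tested hepatocyte markers fell, as given at the end. In bulk RNA a change in the make-up of the culture and a change of RNA per cell cannot be told apart.

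Over the mean of the 5 matched times, 4 of the 10 members rose with CCL: AXL, ANKRD1, MYOF and AMOTL2. MYOF was tested only through its CCL arrays, where it is high. The call of AMOTL2 was lost with 18 h left out of the mean (0.25, adjusted p = 0.118). No member fell in any comparison by limma's adjusted p. At an unadjusted p under 0.05, CCN2 at 24 h was the only one lower, where 929 of 6529 tested genes met that cut in either direction. For comparison, 13.6% of all tested genes were called higher in that mean and 11% lower. The members were chosen with earlier results of these data known, so the comparisons with all genes describe them and are not a test. The median log2 difference of the 10 members was 0.24, against 0.01 over all tested genes, and without AXL and ANKRD1 the other 8 had a median of 0.21. AXL ranked 11 and ANKRD1 15 among 6529 genes by this difference. The 95% intervals of AXL (1.84 to 2.38) and of MYOF, the next member after ANKRD1 (0.61 to 1.28), did not overlap, while that of ANKRD1 (1.25 to 2.65) overlapped both. Whether effects differ between members was not tested beyond these intervals.

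**Figure D1:**
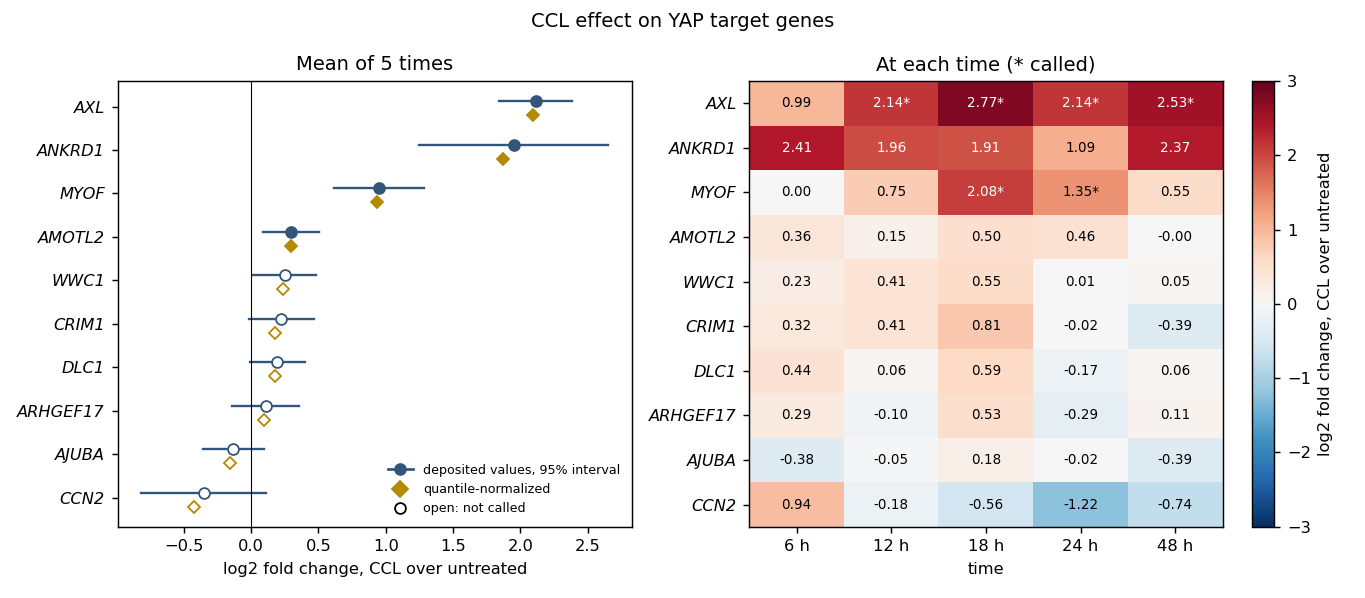
Left, log2 fold change of CCL over untreated cells as the mean of 5 times for the 10 members, with 95% intervals (circles) and the quantile-normalized value (diamonds); filled symbols are called at adjusted p under 0.05. Right, the same at each time, with an asterisk for a call: AXL runs from 0.99 to 2.77 and MYOF peaks at 18 h with 2.08, while CCN2 goes from 0.94 at 6 h to -1.22 at 24 h.

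AXL (chr19:41219223-41261766), a receptor tyrosine kinase activated by the ligand GAS6, was the member with the clearest rise. At 6 h it stood at 6.38, 6.60 and 6.35 in CCL-treated cells, against 5.47, 5.04 and 5.85 in untreated cells. At 12 h it stood at 6.70, 7.02 and 7.31 in CCL-treated cells, against 5.12, 5.00 and 4.50 in untreated cells. At 18 h it stood at 7.54, 7.14 and 7.37 in CCL-treated cells, against 4.20 and 4.96 in untreated cells. The arms did not overlap at any of these times, and the gap was widest at 18 h. At 24 h the values were 6.99 and 7.26 in CCL-treated cells, against 4.79, 4.71 and 5.45 in untreated cells. At 48 h they were 7.84 and 7.02 in CCL-treated cells, against 4.53, 4.98 and 5.19 in untreated cells. The untreated arrays at 0 h, 5.04 and 5.53, lay within the untreated range of the later times. The lowest of the 13 CCL arrays, 6.35, was above the highest of the 16 untreated arrays, 5.85, a complete separation seen in 0.934% of tested genes (61) and in no other member.

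The mean log2 difference of AXL was 2.11 ± 0.13 (SE; 4.33-fold; adjusted p = 1.53e-11), and 2.09 after quantile normalization. By time it was 0.99 ± 0.28 at 6 h, which was not called (adjusted p = 0.126), and 2.14 ± 0.28 at 12 h (adjusted p = 7.33e-05). It was 2.77 ± 0.31 at 18 h (adjusted p = 6.52e-06), 2.14 ± 0.31 at 24 h (adjusted p = 2e-04) and 2.53 ± 0.31 at 48 h (adjusted p = 7.73e-05). After quantile normalization the 18 h difference was 2.35, the 48 h difference 2.79, and the 6 h difference, 1.09, passed the test (adjusted p = 0.0431). Fitted to the 48 h arrays alone, the 48 h difference lost its call (adjusted p = 0.161). The F-test of a change in the CCL effect over the 5 times gave an unadjusted p of 0.00202 and an adjusted p of 0.45, so the larger differences from 12 h on were not separated from the one at 6 h after adjustment. Without the set-3 untreated 18 h array the 18 h difference was 3.15, and without the set-2 CCL 48 h array the 48 h difference was 2.94. Each of these fits left 1 array in a group, so no p-value is given for them. Between arrays with the same set number and time, AXL differed by 0.50 to 3.34 in 12 comparisons. All were higher with CCL, which follows from the full separation of the arms and adds nothing to it.

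**Figure D2:**
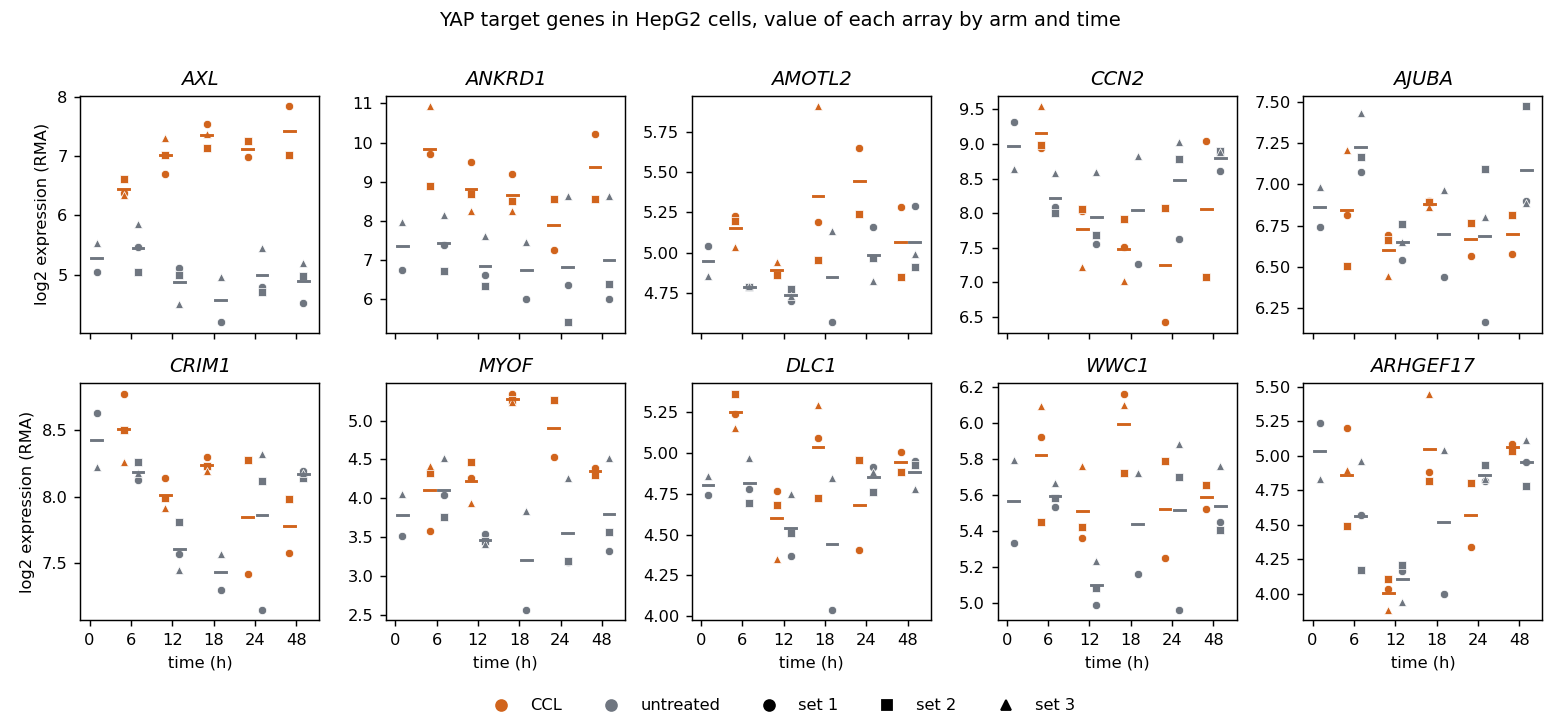
Log2 expression (RMA) of each array against time in h, evenly spaced, for the 10 members; orange is CCL, grey is untreated, the symbol gives the set number in the labels, and short lines are group means. In AXL every CCL array (6.35 to 7.84) lies above every untreated array (4.20 to 5.85); in CCN2 the CCL arrays lie above the untreated ones at 6 h and overlap them at later times.

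ANKRD1 (chr10:90912096-90921087), a nuclear and sarcomeric ankyrin-repeat protein used as a standard readout of YAP, rose by a mean nearly as large as that of AXL but with a larger error. At 6 h it stood at 9.71, 8.88 and 10.92 in CCL-treated cells, against 7.39, 6.74 and 8.17 in untreated cells. At 12 h it stood at 9.50, 8.70 and 8.26 in CCL-treated cells, against 6.62, 6.34 and 7.61 in untreated cells. At 18 h it stood at 9.20, 8.50 and 8.26 in CCL-treated cells, against 6.02 and 7.46 in untreated cells. Up to 18 h the arms did not overlap (upward in 6.23%, 11.8% and 32.5% of tested genes at 6, 12 and 18 h). At 24 h it stood at 7.26 and 8.56 in CCL-treated cells, against 6.38, 5.42 and 8.65 in untreated cells. At 48 h it stood at 10.21 and 8.55 in CCL-treated cells, against 6.01, 6.38 and 8.63 in untreated cells. At both late times the set-3 untreated array was above at least 1 CCL array, and the arms overlapped. The untreated arrays at 0 h were 6.75 and 7.98.

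The mean log2 difference of ANKRD1 was 1.95 ± 0.34 (SE; 3.87-fold; adjusted p = 0.000138). By time it was 2.41 ± 0.71 at 6 h, 1.96 ± 0.71 at 12 h, 1.91 ± 0.80 at 18 h, 1.09 ± 0.80 at 24 h and 2.37 ± 0.80 at 48 h. The 24 h value rested on single arrays, running from 0.40 without the set-2 untreated array to 2.01 without the set-3 untreated array, and it was 2.35 with array weights. The 18 h value was 1.19 without the set-1 and 2.64 without the set-3 untreated array, fits that left 1 array in that group. After quantile normalization the 18 h value was 1.51. In the fit to all arrays none of the 5 differences was called, with adjusted p of 0.178, 0.216, 0.103, 0.608 and 0.068 in order of time. At 6 h it was the second highest of all 6529 differences. After quantile normalization the 48 h difference was 2.46 and was called (adjusted p = 0.0481). Within the untreated arm the set-3 array was the highest of its group for ANKRD1 at 6 of 6 times, while the CCL arm has no set-3 array at 24 and 48 h. With the set number as a block in the model, ANKRD1 was called at 6 h (adjusted p = 0.0167), 12 h (0.0411), 18 h (0.0129) and 48 h (0.00497). Arrays of the same set and time differed in the same direction in 12 of 12 comparisons (0.65 to 4.20), higher with CCL in each. The share of all tested genes with such a result was not computed, and the set number was not established as a pairing.

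**Figure D3:**
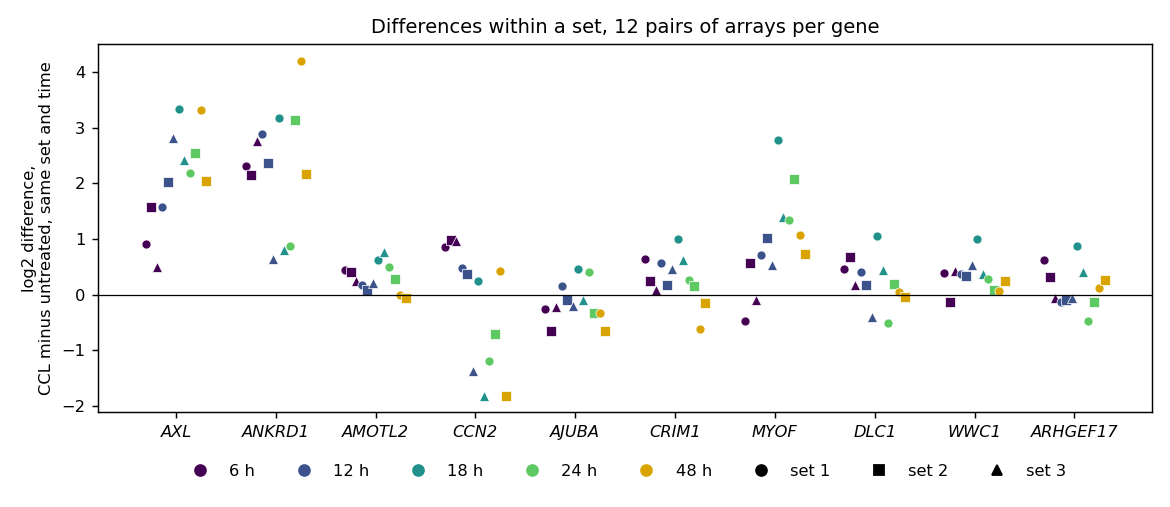
Log2 difference, CCL minus untreated, between arrays of the same set number and time (12 differences per member; colour gives the time, symbol the set). AXL and ANKRD1 lie above 0 in all 12, MYOF in 10, and CCN2 in 7, with its 3 differences at 6 h between 0.86 and 0.99 and its lowest at -1.81. For AXL the count follows from its arms not overlapping on any array.

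CCN2 (chr6:131948176-131951372), the secreted matricellular protein formerly named CTGF, is the other standard YAP readout and did not follow AXL and ANKRD1. At 6 h it stood at 8.94, 8.99 and 9.54 in CCL-treated cells, against 8.08, 8.00 and 8.57 in untreated cells. At 12 h it stood at 8.03, 8.06 and 7.22 in CCL-treated cells, against 7.56, 7.69 and 8.60 in untreated cells. At 18 h it stood at 7.52, 7.92 and 7.01 in CCL-treated cells, against 7.26 and 8.83 in untreated cells. Only at 6 h were all CCL arrays above all untreated arrays (6.23% of tested genes). At 24 h it stood at 6.43 and 8.07 in CCL-treated cells, against 7.63, 8.78 and 9.02 in untreated cells. At 48 h it stood at 9.04 and 7.08 in CCL-treated cells, against 8.61, 8.89 and 8.88 in untreated cells, so the 2 CCL arrays fell on either side of the untreated ones. At 0 h the untreated arrays were at 9.32 and 8.63.

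The mean log2 difference of CCN2 was -0.35 ± 0.23 (95% interval -0.82 to 0.11; adjusted p = 0.274). By time the difference was 0.94 ± 0.47 at 6 h, -0.18 ± 0.47 at 12 h, -0.56 ± 0.53 at 18 h, -1.22 ± 0.53 at 24 h and -0.74 ± 0.53 at 48 h, none of them called. After quantile normalization the 18 h difference was -0.96. Single arrays moved these values: without the set-3 untreated 18 h array the 18 h difference was 0.22, and without the set-2 CCL 48 h array the 48 h difference was 0.24. The 24 h difference ran from -2.05 without the set-2 CCL array to -0.40 without the set-1 CCL array, and with array weights it was -1.52 and was called lower (adjusted p = 0.0482). The test of a change in the CCL effect over time gave an unadjusted p of 0.0498 and an adjusted p of 0.45. Within sets, the difference was positive in 7 of 12 comparisons and negative in 5, with a median of 0.31, and at 48 h it was 0.43 in set 1 and -1.81 in set 2. The set-3 array was the highest of its untreated group for CCN2 at 4 of 6 times, and with the set number as a block the mean was -0.32 (adjusted p = 0.282). The 6 arrays whose medians stood apart were left out in an alternative added after the values were seen. It left 1 array in the untreated 18 h, CCL 24 h and CCL 48 h groups, so no p-value is given for it here. The mean of CCN2 was then -0.56. With 18 h left out it was -0.30 (adjusted p = 0.413), and with 1 array left out it ran from -0.55 to -0.16. The second probe set of CCN2 had a mean of 2.26 and a highest value of 3.33 and was too dim to be read.

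MYOF (chr10:93306429-93482334), a ferlin that takes part in membrane fusion and repair, rose at 18 and 24 h. At 18 h it stood at 5.34, 5.27 and 5.23 in CCL-treated cells, against 2.57 and 3.84 in untreated cells. At 24 h it stood at 4.53 and 5.27 in CCL-treated cells, against 3.18, 3.20 and 4.26 in untreated cells. At 6 h, with 3.57, 4.33 and 4.42 in CCL-treated and 4.04, 3.76 and 4.51 in untreated cells, the arms overlapped throughout. MYOF was dim: it was above log2 5 on 4 of 13 CCL arrays and on 0 of 16 untreated ones, so it was tested only through its high CCL arrays. Its mean difference was 0.95 ± 0.16 (1.93-fold; adjusted p = 0.00011). By time it was 2.08 ± 0.38 at 18 h (adjusted p = 0.00109), or 1.59 after quantile normalization, and 1.35 ± 0.38 at 24 h (adjusted p = 0.0471). At 12 h it was 0.75 (adjusted p = 0.377) and at 48 h 0.55 (adjusted p = 0.368). The 18 h call was lost with array weights (adjusted p = 0.12). Without the set-1 untreated 18 h array, which had the lowest median of all arrays, the 18 h difference was 1.45. That fit left 1 array in the group, so no p-value is given. The 24 h call was lost without the set-1 or the set-2 untreated array (adjusted p = 0.166 and 0.185) and when that time was fitted alone (adjusted p = 0.172). The 24 h difference was 1.72 without the set-1 and 0.99 without the set-2 CCL array, fits that left 1 array in that group. The call of the mean held in every alternative that tested MYOF, which the filter at log2 6 left out.

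The members that act on the Hippo pathway itself moved little. AMOTL2 (chr3:134355345-134375417), an angiomotin that binds YAP, had a lowest, median and highest value of 4.85, 5.19 and 5.91 on CCL arrays, against 4.57, 4.84 and 5.29 on untreated arrays. Its mean difference, 0.30 ± 0.10 (adjusted p = 0.0343), passed the test, and the ranges of the arms overlapped. That call was lost with 18 h left out of the mean (adjusted p = 0.118) and with array weights (adjusted p = 0.0756). It was also lost in 7 of 27 fits that left out 1 array, some of which left 1 array in a group. Without the 6 arrays that stood apart, which also left groups of 1 array, the mean difference of AMOTL2 was 0.11. WWC1 (chr5:168291645-168472303), an upstream activator of LATS, ran from 5.25 through a median of 5.72 to 6.16 on CCL arrays, against 4.96, 5.49 and 5.88 on untreated arrays. Its mean difference of 0.25 ± 0.11 did not pass the test (adjusted p = 0.112; 0.0502 after quantile normalization; 0.0162 with the set number as a block). AJUBA (chr14:22971177-22982551), a LIM protein that inhibits LATS, ran from 6.44 through 6.77 to 7.21 on CCL arrays, against 6.16, 6.89 and 7.47 on untreated arrays. Its mean difference was -0.13 ± 0.11 (95% interval -0.36 to 0.09; adjusted p = 0.416). At 48 h its CCL values, 6.58 and 6.82, lay below all 3 untreated values, 6.90, 7.47 and 6.89, as in 29.5% of tested genes. The difference was -0.39 (adjusted p = 0.342), or -0.16 after quantile normalization.

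DLC1, a GTPase-activating protein, and ARHGEF17 (chr11:73308276-73369388), a guanine nucleotide exchange factor, did not pass the test. DLC1 ran from 4.35 through 4.95 to 5.36 on CCL arrays, against 4.04, 4.78 and 4.97 on untreated arrays. It was above log2 5 on 6 CCL arrays and on 0 untreated ones, so like MYOF it was tested only through CCL arrays. Its mean difference was 0.19 ± 0.10 (95% interval -0.01 to 0.40, adjusted p = 0.161). Without the set-3 untreated 18 h array, which left 1 array in that group, it was 0.28. At 6 h its CCL values of 5.24, 5.36 and 5.15 lay above the untreated values of 4.78, 4.69 and 4.97 (0.44, adjusted p = 0.598). Such a separation was seen in 6.23% of tested genes. ARHGEF17 ran from 3.89 through 4.82 to 5.45 on CCL arrays, against 3.95, 4.83 and 5.24 on untreated arrays. Its mean difference was 0.11 ± 0.12 (95% interval -0.14 to 0.35; adjusted p = 0.551), with 6 positive and 6 negative differences within sets.

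CRIM1 (chr2:36355778-36551135), a transmembrane protein that binds bone morphogenetic proteins, ran from 7.42 through 8.19 to 8.77 on CCL arrays, against 7.15, 8.13 and 8.63 on untreated arrays. Its mean difference was 0.23 ± 0.12 (adjusted p = 0.168). It was also 0.23 without the 6 arrays that stood apart, a fit with groups of 1 array. At 18 h the CCL values 8.30, 8.23 and 8.19 were above the untreated values 7.30 and 7.57, a difference of 0.81 ± 0.27 (adjusted p = 0.0526), which was 0.44 after quantile normalization (adjusted p = 0.242). It was called with the set number as a block (0.74, adjusted p = 0.0406) and with the filter at log2 6 (adjusted p = 0.0489). Without the set-3 untreated array, which left 1 array in that group, it was 0.94. At 48 h the CCL values 7.58 and 7.99 were below the untreated values 8.19, 8.14 and 8.17, a difference of -0.39 (adjusted p = 0.378), or -0.19 after quantile normalization. All CCL arrays were above all untreated arrays in 32.5% of tested genes at 18 h and below them in 29.5% at 48 h. The median difference of all tested genes was itself 0.41 at 18 h and -0.26 at 48 h. The direction of CRIM1 at these times was likewise opposite, and its adjusted F-test p was 0.45.

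Counted by time, 0 members were called higher at 6 h by limma, where 0.276% of all tested genes were called higher. At an unadjusted p under 0.05 there were 3 members at 6 h, against 527 of all tested genes in either direction. After quantile normalization 1 member was called at 6 h, AXL, against a background of 0.904%. At 12 h AXL alone was called (background 1.04%). At 18 h AXL and MYOF were called (background 12.3%, a share that rests on single arrays: 815 genes were called in either direction, against 24 without the set-1 and 2647 without the set-3 untreated array), and at 24 h the same 2 genes (background 2.54%). At 48 h AXL was called (background 1.33%), and after quantile normalization ANKRD1 also (background 5.18%). The members' median differences were 0.34, 0.28, 0.57, -0.01 and 0.05 at 6, 12, 18, 24 and 48 h, against -0.06, -0.06, 0.41, 0.04 and -0.26 over all tested genes. At 18 h, 7 members had an unadjusted p under 0.05, as did 2121 of all tested genes in either direction. The 18 h differences of the 5 members other than AXL, ANKRD1, MYOF, CCN2 and AJUBA shrank after quantile normalization. They went from between 0.50 and 0.81 to between 0.02 and 0.44.

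Full separation of the arms is a weaker measure with 2 or 3 arrays a group. At 6 h all CCL arrays were above all untreated arrays in 5 members (AXL, ANKRD1, AMOTL2, CCN2 and DLC1), against 6.23% of tested genes. At 12 h this held for 6 members (AXL, ANKRD1, AMOTL2, CRIM1, MYOF and WWC1; background 11.8%), and at 18 h for 5 (AXL, ANKRD1, CRIM1, MYOF and WWC1; background 32.5%). At 24 h it held for 3 (AXL, AMOTL2 and MYOF; background 13.9%), and at 48 h for AXL alone (background 10.3%). All CCL arrays were below all untreated arrays in ARHGEF17 at 24 h (background 5.39%) and in AJUBA and CRIM1 at 48 h (background 29.5%).

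No member was called for a change of the CCL effect over the 5 times (limma F-test; background 0.0153%, which is 1 gene). At an unadjusted p under 0.05 there were 3 members, AXL, MYOF and CCN2, against 697 of all tested genes. None was called for a change over the 6 times of the untreated cells either (background 0.23%). There 2 members, CRIM1 and ARHGEF17, had an unadjusted p under 0.05, as did 721 of all tested genes. After quantile normalization the unadjusted p of this F-test was 0.0212 for CRIM1 and 0.147 for ARHGEF17. With the values as deposited, the lowest adjusted p of a member in untreated cells was 0.301, for CRIM1. CRIM1 stood at 8.63 and 8.22 at 0 h and at 7.57, 7.81 and 7.45 at 12 h.

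Across the 11 group means of quantile-normalized values, described without a test because the groups share arms and times, MYOF tracked AXL most closely among the members (Pearson r = 0.912). ANKRD1 correlated with AXL at 0.831, and CCN2 at -0.584 with AXL, -0.0897 with ANKRD1 and -0.779 with MYOF. Within groups, the array that was highest for ANKRD1 was also highest for MYOF and WWC1 in 9 of 11 groups, for AXL in 8, for CCN2, AJUBA and DLC1 in 7, for CRIM1 and ARHGEF17 in 5 and for AMOTL2 in 3. Over all other tested genes the median was 5 of 11 groups, with 31.3% of genes at 7 or more and 4.83% at 9 or more. Of all tested genes, those whose group means were most like AXL were PDLIM7 (r = 0.981), PXDC1 (0.981) and RGS10 (0.979), and those most like ANKRD1 were SIK1 (0.983), PLK3 (0.951) and ETS2 (0.948), each over 11 group means. RGS10 was above log2 5 on 2 CCL arrays and on 0 untreated ones, so it was tested only through CCL arrays, where it is high.

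The pathway around the members was described with lists of known genes, chosen like the members with earlier results of these data known. They were counted in the mean of the 5 times, where 13.6% of all tested genes were called higher and 11% lower. Of 9 tested further YAP and TAZ targets, 1 rose and 3 fell, with a median of -0.09. NDRG1, a stress-responsive gene, rose by 1.24 ± 0.14, while SGK1, a serum- and glucocorticoid-induced kinase, fell by 0.85. Both were dim, with highest values of 5.84 and 5.64, so the filter at log2 6 left them out. The median of NDRG1 was 5.27 in CCL-treated and 4.09 in untreated cells, and that of SGK1 3.91 and 4.89. ETV5 and SH2D4A fell by 0.39 and 0.36. The difference of ETV5 was -0.25 without the set-1 CCL 48 h array and -0.31 without the set-1 CCL 24 h array. It was -0.23 without the 6 arrays that stood apart. Each of these fits left 1 array in a group, so no p-value is given. The difference of SH2D4A ran from -0.45 to -0.27 with 1 array left out. The targets CCN1, F3, NUAK2 and PTPN14 were not analysed here for want of a probe set with their name, nor were LATS1 and LATS2. Of 20 tested Hippo kinases, adaptors and upstream regulators, 1 rose and 2 fell, with a median of -0.01: PATJ, a polarity scaffold, rose by 0.49 (adjusted p = 0.0203), and MAP4K4, a kinase upstream of LATS, and SIKE1 fell by 0.47 and 0.40. The call of PATJ was lost with 18 h left out of the mean (0.28, adjusted p = 0.241). Without the set-1 untreated 18 h array, which left 1 array in that group, the difference of PATJ was 0.30.

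Of 9 tested genes of YAP, TAZ and their nuclear partners, 3 rose and 0 fell, with a median of 0.21. TEAD4 rose by 0.52 ± 0.11 (adjusted p = 0.000714), TEAD2 by 0.38 ± 0.13 (adjusted p = 0.0311) and YAP1 by 0.34 ± 0.09 (adjusted p = 0.0072). WWTR1 (-0.12, adjusted p = 0.478), TEAD1 (0.12, adjusted p = 0.587) and TEAD3 (0.27, adjusted p = 0.0784) did not pass the test. After quantile normalization 4 of the 9 rose, TEAD3 among them, and 1 fell. The call of TEAD2 was lost in 9 fits that left out 1 array and with 18 h left out of the mean (adjusted p = 0.109). Without the 6 arrays that stood apart, which left groups of 1 array, its difference was 0.30. Of the other receptors of the AXL family and the ligands, 3 genes were tested, of which 0 rose and 1 fell, with a median of -0.33. The receptor MERTK fell by 0.50 (adjusted p = 0.0134), and the receptor TYRO3 had a difference of 0.16 (adjusted p = 0.375). The ligand PROS1 had a difference of -0.33 (adjusted p = 0.0816), and the ligand GAS6 was below the filter, with a highest value of 3.83. After quantile normalization MERTK and PROS1 were both called lower (adjusted p = 0.00049 and 0.00485).

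TEAD factors often share enhancers with AP-1, and targets of SRF and its cofactor MRTF overlap with those of YAP, so both were listed. Of 8 tested AP-1 subunits, 7 rose and 0 fell, with a median of 0.85. FOSL1 rose by 1.67 ± 0.18, JUNB by 1.07, JUN by 1.01 and JUND by 0.85. Of 12 tested SRF and MRTF targets, 6 rose and 0 fell, with a median of 0.30, among them FHL2 (1.14), ZYX (1.01), TPM4 (0.70) and TAGLN (0.61). TAGLN was dim, with a median of 5.04 in CCL-treated and 4.17 in untreated cells and a highest value of 5.66. After quantile normalization 8 of these 12 rose and 1 fell, beside 16.5% of all tested genes called higher and 18.9% called lower.

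**Figure D4:**
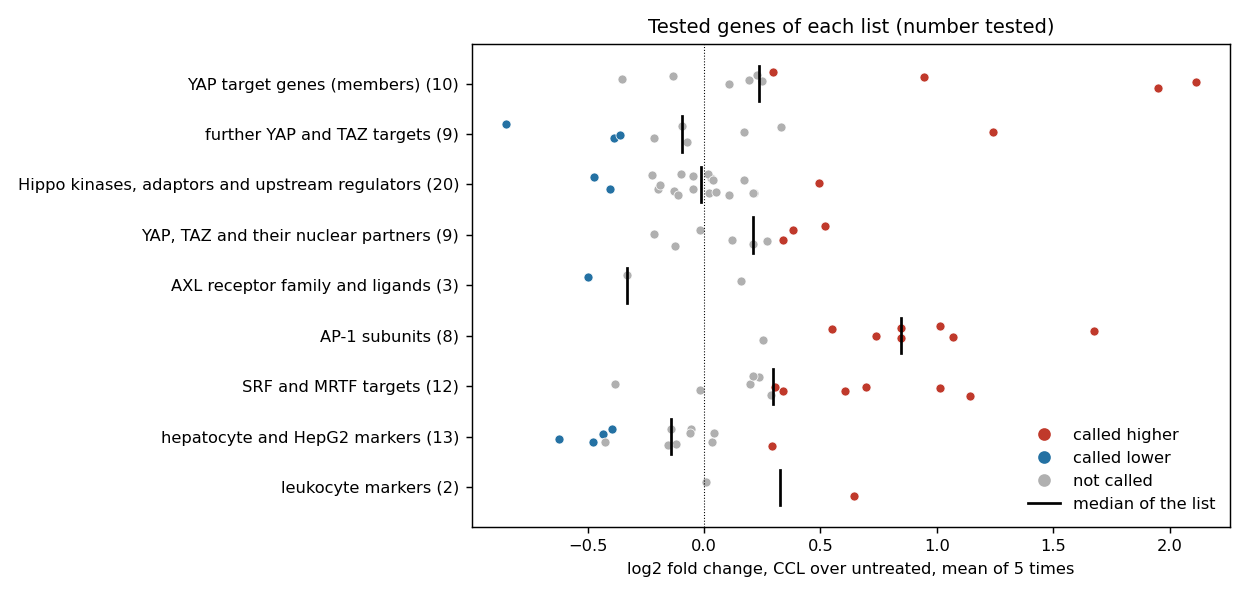
Log2 fold change, CCL over untreated cells, mean of 5 times, of each tested gene in the members' list and in 8 other lists (number tested in parentheses); red is called higher, blue called lower, grey not called, and the bar is the list's median. The AP-1 list has 7 of 8 genes called higher and a median of 0.85, against 4 of 10 and 0.24 for the YAP target genes. Of those 4, MYOF was tested only through its CCL arrays, where it is high.

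Of 13 tested hepatocyte and HepG2 markers, 1 rose and 4 fell, with a median of -0.14. FGG, FGA, TTR and APOA1 fell by 0.62, 0.48, 0.43 and 0.39, APOA2 rose by 0.29, and ALB (-0.06) and AFP (-0.14) were not called. The call of APOA1 was lost in 16 of 27 fits that left out 1 array, with no filter (adjusted p = 0.0666) and with 18 h left out (-0.29, adjusted p = 0.177), and those of FGA and TTR in 1 such fit each. Fibroblast markers (3 with a named probe set) and endothelial markers (6) had no tested gene and stayed at or under 4.95 and 4.19 on every array. The summed log2 level of the fibroblast markers ran from 6.95 to 9.48 on CCL arrays and from 6.65 to 8.33 on untreated arrays. That of the endothelial markers ran from 13.49 to 20.24 on CCL arrays and from 13.68 to 17.30 on untreated arrays. Of the 4 named leukocyte markers 2 were tested, and LCP1, also expressed in tumour cells, rose by 0.64 (adjusted p = 0.00315), while LYZ had a difference of 0.01. With 18 h left out LCP1 was at 0.45 (adjusted p = 0.0546), and without the 6 arrays that stood apart at 0.28. Their summed level ran from 18.91 to 23.99 on CCL arrays and from 18.46 to 21.24 on untreated arrays, and the part of other cells in the members' values was not tested.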

How the data were processed

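RNA of HepG2 cells was measured on 29 Affymetrix arrays, of which 13 held CCL-treated cells and the other 16 untreated ones. The authors deposited log2 values, 1 for each probe set and array. Per the submitters' processing notes, they used RMA in Affymetrix Expression Console 1.1. RMA equalizes arrays processed together. The array medians here ran from 2.29 to 3.39. Whether all arrays were processed together, and if not which were, is not given in the sources used here and was not tested. Unequal medians shift single arrays against others and so can move differences between arms, most at 18 h. Quantile normalization of all arrays was therefore run beside the deposited values. For arrays the depth is unknown, and their number limits the precision.

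Of 53617 probe sets, 16098 carried a gene symbol in the platform's probe table (1 symbol each), for 14884 genes, and 37519 had none and were not analysed here. For 779 genes with several probe sets, the brightest on average stood for the gene, CCN2 among the members. A gene was tested if it exceeded log2 5 on 2 or more arrays (6529 genes). In limma 3.58.1 (lmFit and eBayes; R 4.3.3), a model with a mean for each group took in all 29 arrays, with contrasts at 5 times, their mean, and F-tests over times. P-values are two-sided and adjusted over 6529 genes. The procedure was tested on simulated data. Alternatives were another normalization, other filters, the set number as a block, array weights, the compared groups alone, each array left out in turn, and 2 added after the data were seen. Arrays of the same set number and time had residuals that correlated above 0.1 in 9 of 12 pairs (-0.0657 to 0.444). The labels do not say what a set is, and pairing was not taken as established. The main model thus had no term for the set number, and with it as a block more genes were called at each of the 5 times.

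The members and the 11 gene lists (194 genes, 86 tested) were chosen with earlier results of these data known. All members are named whatever they show. From each other list up to 4 called genes with the highest and up to 4 with the lowest differences are named, plus YAP1, WWTR1, TEAD1 to TEAD4, LATS1, LATS2, CCN1, GAS6, TYRO3, MERTK, FOSL1, ALB and AFP whatever they show, and the 3 genes most like AXL and ANKRD1. F3, NUAK2, PTPN14, PROS1 and LYZ were named outside that rule. Promoter sequences are from RefSeq (GRCh38.p14).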

Additional observations from a re-analysis of the deposited data

Results flagged for a closer look

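In 4 members all CCL arrays of a time lay on one side of the untreated mean at some times and on the other side at others. This was counted for the members only, so the share over all tested genes is not known. The median difference of all tested genes was itself 0.41 at 18 h and -0.26 at 48 h. For CCN2 the log2 difference, CCL minus untreated, was 0.94 at 6 h, -0.56 at 18 h and -1.22 at 24 h, and the 18 h value was 0.22 without the set-3 untreated array. For AJUBA it was -0.38 at 6 h, 0.18 at 18 h and -0.39 at 48 h, and after quantile normalization the 18 h value was -0.21. For CRIM1 it was 0.32 at 6 h, 0.41 at 12 h, 0.81 at 18 h and -0.39 at 48 h. For ARHGEF17 it was -0.10 at 12 h, 0.53 at 18 h, -0.29 at 24 h and 0.11 at 48 h, and the 18 h value after quantile normalization was 0.02. The limma F-test of a change in the CCL effect over the 5 times gave adjusted p of 0.45 for CCN2, 0.639 for AJUBA, 0.45 for CRIM1 and 0.54 for ARHGEF17, so none of the 4 passed it. Single pairs of times were not tested, and groups of 2 or 3 arrays are too small for a test of single distant arrays.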

How the results depend on the processing

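The number of members called over the mean of the 5 times was 4, and 2 with a filter at log2 6, where 6 members were tested; it was 3 to 5 with 1 array left out. At 6 h it was 0, but 1 with quantile normalization or arrays centred on their median, and 2 with the set number as a replicate block or with array weights. At 12 h it was 1, but 2 with the replicate block, 3 with the compared groups only and 5 with array weights. With array weights the calls over all tested genes were 296 at 6 h and 2030 at 12 h, against 20 and 81 in the main fit. At 18 h it was 2, but 4 with the replicate block, 1 with array weights, 1 without the 6 arrays that stood apart, and 1 to 8 with 1 array left out (8 without the set-3 and 1 without the set-1 untreated array). At 24 h it was 2, but 1 with no filter, with a filter at log2 6, with the compared groups only, and without the 6 arrays, 3 with array weights (CCN2 being called lower), and 1 to 2 with 1 array left out (1 without either CCL array or the set-1 or set-2 untreated array). At 48 h it was 1, but 2 with quantile normalization, centring or the replicate block, 0 with the compared groups only, and 1 to 2 with 1 array left out (2 without the set-2 CCL or the set-3 untreated array). For the change over the 5 times it was 0, and 0 under every alternative other than leaving out 1 array. For untreated cells over time it was 0, but 9 with array weights, where 4126 of all tested genes were called, against 15 in the main fit. It also moved from 0 without the 6 arrays that stood apart, a fit that left 1 untreated 18 h array. With arrays left out, either test had member calls only in fits that left 1 array in a group. Leaving out the 6 arrays, or 1 array of the untreated 18 h, CCL 24 h or CCL 48 h group, left 1 array there. The counts of calls from such fits are limited by it. The estimation of array weights gave a warning that it had not converged. The cause of these differences was not tested.

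Over all genes the calls at 6 h were 20, against 85 with quantile normalization and 108 with the replicate block; at 12 h 81, against 257 with the block and 660 with the compared groups only; at 18 h 815, against 338 with quantile normalization, 219 with centring, 1542 with no filter, 1571 with the block, 13 with array weights, 58 with the compared groups only, 59 without the 6 arrays, and 24 to 2647 with 1 array left out; at 24 h 197, against 450 with quantile normalization and 525 with the block; and at 48 h 428, against 810 with quantile normalization and 0 with the compared groups only. The set number was not established as a pairing, and the own number correlated best in 7 of 12 pairs. The means of AXL and ANKRD1 passed the test under every alternative run, and that of MYOF under every one except the filter at log2 6, where it was not tested; AXL at 48 h did not with the compared groups only (adjusted p = 0.161).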
